A study of Homo sapiens with 4 samples.

Results

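ANKRD36, ANKRD36B, ANKRD36C, CCDC144A, NBPF1, NBPF10, NBPF14 and NBPF19 are human genes that belong to 3 families copied by recent segmental duplication. These 8 genes, of 35584 genes in the deposited transcript tables, were taken as a given list, chosen with their difference between the genotypes already in view. Their levels and fold changes are therefore a description and carry no test. The cells were iMGL, microglia-like cells grown from human induced pluripotent stem cells of WTC11, an established line. S1KO cells were WTC11 edited to lack SHIP1, the inositol 5-phosphatase encoded by INPP5D, and WT cells were WTC11 of unedited genotype, with 2 libraries of each. The design text gives 2 clones per genotype, but no label ties a replicate number to a clone, so an SE measures the spread between these libraries only. All 4 libraries came from poly-A selected RNA of bulk cultures, in which fewer cells of a type and less RNA per cell cannot be told apart.

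The NBPF genes (neuroblastoma breakpoint family) lie mostly on chromosome 1 and encode proteins built from tandem Olduvai domains, formerly called DUF1220, whose copy number grew sharply in the human lineage. ANKRD36 and its copies on chromosome 2 encode proteins with ankyrin repeats followed by coiled-coil sequence, and CCDC144A and its copies on chromosome 17 encode coiled-coil proteins; little is known of what either group does. Copies this recent share long stretches of identical sequence. A read from such a stretch fits several genes, and a quantifier divides it among them by estimation, so the level of any single copy is less certain than that of a family.

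The repeat unit of NBPF19 is shown because a transcript built from it held more estimated counts in S1KO than any other transcript of the listed genes. The transcript NBPF19-202 (2344 bases, chr1:149499966-149524617, GRCh38, plus strand) has 20 exons, of which 9 are 173 bases long and 6 are 52 bases long. The 173-base exons make up 66.42% of the transcript. Over their 36 pairs, identity was between 80.92% and 100%, with a median of 86.13%, and 5 pairs were identical. The fourth and sixth exons, at chr1:149502286-149502458 and chr1:149503834-149504006, are the first 2 of these that lie wholly in coding sequence, with the 20 bases at which they differ in capitals (GENCODE 29 transcript sequence).
NBPF19-202 exon 4: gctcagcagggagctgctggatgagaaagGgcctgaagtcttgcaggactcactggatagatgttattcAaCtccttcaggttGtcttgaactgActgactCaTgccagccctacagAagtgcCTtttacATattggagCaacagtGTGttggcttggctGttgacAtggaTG
NBPF19-202 exon 6: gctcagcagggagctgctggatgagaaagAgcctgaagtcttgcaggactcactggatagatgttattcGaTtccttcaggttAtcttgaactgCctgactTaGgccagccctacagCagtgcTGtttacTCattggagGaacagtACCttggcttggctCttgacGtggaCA

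In the ANKRD36 family the copies are less repeated inside than NBPF19, but parts of them are close to identical between genes. One coding exon of 915 bases is held by all 3 listed copies. It was picked as the longest coding exon of equal length and like sequence, so it does not stand for the whole genes. The stretch from its base 181 to its base 330 is shown because it holds 6 of the 17 columns that differ in any copy (capitals). This stretch lies at chr2:97245337-97245486 on the plus strand in ANKRD36, at chr2:97511723-97511872 on the minus strand in ANKRD36B and at chr2:95855851-95856000 on the minus strand in ANKRD36C (GRCh38, GENCODE 29). Over the full exon ANKRD36 differed from ANKRD36B at 1 base (99.89% identity) and from ANKRD36C at 17 bases (98.14%).
ANKRD36-204 exon 71: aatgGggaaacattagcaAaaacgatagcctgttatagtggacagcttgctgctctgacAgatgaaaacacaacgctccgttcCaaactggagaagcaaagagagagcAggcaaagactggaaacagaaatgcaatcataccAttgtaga
ANKRD36B-204 exon 40: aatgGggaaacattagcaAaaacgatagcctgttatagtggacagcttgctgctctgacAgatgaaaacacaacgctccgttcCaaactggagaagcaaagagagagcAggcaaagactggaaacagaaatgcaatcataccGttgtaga
ANKRD36C-202 exon 63: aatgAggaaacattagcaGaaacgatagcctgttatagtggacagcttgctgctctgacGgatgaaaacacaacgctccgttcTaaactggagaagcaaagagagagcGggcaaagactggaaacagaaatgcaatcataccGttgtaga

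ANKRD36B and ANKRD36C also share their start regions, shown here because both genes had higher CPM in S1KO. The RefSeq windows from 250 bases before to 50 bases after the start (GRCh38.p14) lie on the minus strand at chr2:97589828-97590127 for ANKRD36B and chr2:95991775-95992074 for ANKRD36C. They aligned over 260 bases, of which 257 were identical, and capitals mark the other 3.
ANKRD36B promoter: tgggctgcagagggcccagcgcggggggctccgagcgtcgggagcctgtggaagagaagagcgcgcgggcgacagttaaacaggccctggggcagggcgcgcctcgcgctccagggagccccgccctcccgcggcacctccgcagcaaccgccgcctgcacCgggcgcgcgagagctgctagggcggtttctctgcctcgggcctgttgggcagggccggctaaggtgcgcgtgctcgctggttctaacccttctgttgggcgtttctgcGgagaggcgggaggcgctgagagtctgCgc
ANKRD36C promoter: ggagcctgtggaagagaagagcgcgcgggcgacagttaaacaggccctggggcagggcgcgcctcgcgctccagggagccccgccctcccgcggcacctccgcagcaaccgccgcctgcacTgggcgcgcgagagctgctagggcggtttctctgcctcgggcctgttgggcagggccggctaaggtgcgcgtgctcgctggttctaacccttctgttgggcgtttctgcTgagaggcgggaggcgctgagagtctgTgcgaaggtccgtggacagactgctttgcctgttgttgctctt
These windows held 34 (ANKRD36B) and 28 (ANKRD36C) CG dinucleotides, which read the same on both strands, against a median of 14 over all 35116 windows. NBPF1 had 26, CCDC144A 12, NBPF10 and NBPF14 4 and NBPF19 2, so the listed genes share no single start-region composition. ANKRD36 had no window among the sequences used.

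How much of each gene can be told from the rest was measured from the reference alone, as the share of its 31-base words that occur in no transcript of another gene. NBPF1 had 69.79% of its words to itself. ANKRD36C had 45.62%, ANKRD36 41.16%, ANKRD36B 37.97% and CCDC144A 34.96%. NBPF19 had 14.57%, NBPF14 9.88% and NBPF10 9.78%, the lowest of the 8. The nearest relative of ANKRD36 was ANKRD36C, which held 38.02% of its words; NBPF10 shared 82.5% with NBPF14. For NBPF19 the most sharing gene lay outside the family: 43.77% of its words occurred in annotated transcripts of NOTCH2, a Notch receptor gene.

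The libraries held 22792480 (S1KO 1), 22334585 (S1KO 2), 21516813 (WT 1) and 25927881 (WT 2) estimated counts. The mitochondrial genome's own genes made up 52.32% and 39.24% of them in S1KO against 14.2% and 18.9% in WT, which left 10756617 and 13448658 counts for other genes in S1KO, against 18314724 and 20849116 in WT. INPP5D had 81.0 and 97.6 CPM in S1KO against 355.6 and 441.0 CPM in WT, where CPM is the estimated count scaled by library total and TMM factor. The log2 fold change, S1KO over WT, was -2.16 with an SE of 0.21 (edgeR, adjusted p = 0.0183). That call was lost with S1KO 1 or S1KO 2 left out (edgeR adjusted p = 0.685 and 0.310), while the size stayed between -2.31 and -1.99 with any 1 library left out. All 12 microglia and myeloid markers were detected in every library, with summed levels of 3585 and 3799 CPM in S1KO and 5669 and 5529 CPM in WT. The 5 pluripotency markers summed to 14.5 and 15.0 CPM in S1KO and 5.66 and 7.06 CPM in WT. The 7 mesenchymal markers summed to 7.15 and 18.9 CPM in S1KO, against 3210 CPM in WT 1 and 2.74 CPM in WT 2, so WT 1 stood apart. Sums in S1KO and in WT were 0.57 and 1.26 against 9.54 and 0.95 CPM for 6 neuronal markers. For 4 endothelial markers they were 106.9 and 121.7 against 114.7 and 140.4 CPM. Nearly all of that was PECAM1 (106.3 and 121.2 against 113.6 and 139.5 CPM), while CDH5, KDR and TIE1 reached at most 0.77 CPM. For 6 erythroid and megakaryocyte markers the sums were 13.1 and 11.5 against 7.10 and 10.4 CPM. Most of that was ITGA2B (12.7 and 10.7 against 6.52 and 9.65 CPM), and PF4 and PPBP were at 0 in every library.

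All 8 listed genes passed the filter on low counts. In CPM, 7 of them had both S1KO values above both WT values, as had 26% of the 15377 genes tested, and NBPF1 overlapped. With edgeR's quasi-likelihood test at an adjusted p of 0.05, 5 were called higher in S1KO (ANKRD36, ANKRD36B, ANKRD36C, CCDC144A and NBPF19) and 0 lower, beside 0.787% of all tested genes called higher and 0.15% called lower. The list was chosen on this contrast, so these counts describe the choice. With S1KO 1 or S1KO 2 left out, edgeR called 0 of all genes, of which 1174 and 1637 had an unadjusted p below 0.05; with WT 1 or WT 2 left out it called 2016 and 2151 genes, among them 7 of the 8 in either case. DESeq2 also called 7 of the 8 higher, beside 4.22% of all tested genes. The median log2 fold change of the 8 genes was 1.85, against -0.02 over all tested genes.

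**Figure D1:**
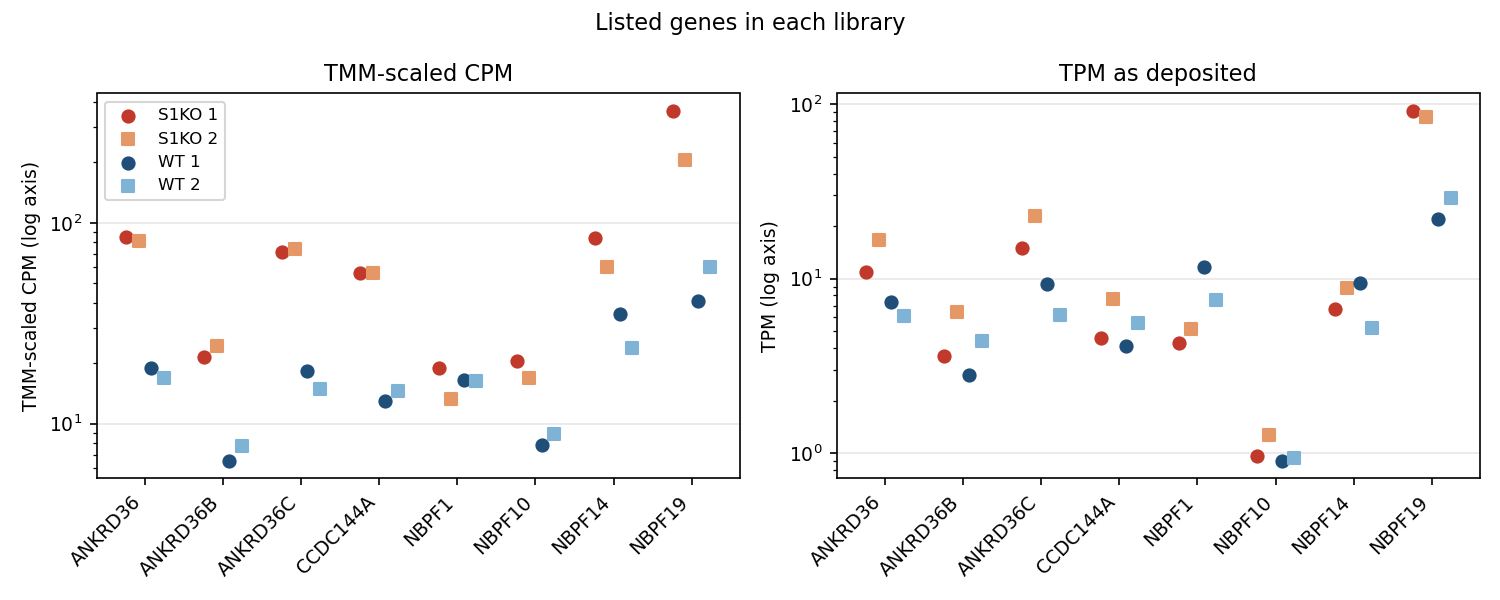
Level of each of the 8 listed genes in each library, as TMM-scaled CPM (left, log axis) and as the deposited TPM (right, log axis); each point is 1 library. In CPM every listed gene but NBPF1 has both S1KO points above both WT points; in TPM, which is taken over a total that includes mitochondrial transcripts, this holds for ANKRD36, ANKRD36C, NBPF10 and NBPF19.

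ANKRD36 (chr2:97113496-97250199, plus strand) had 85.0 and 81.2 CPM in S1KO 1 and S1KO 2, against 18.9 and 16.9 CPM in WT 1 and WT 2. These rest on 1261 and 1727 estimated counts in S1KO and 530 in each WT library. Both S1KO libraries lay well above both WT libraries, and libraries of a genotype were close to each other. The log2 fold change was 2.21 ± 0.17 (SE, 2 libraries per genotype), or 4.64-fold.

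ANKRD36C (chr2:95836919-95991831, minus strand) had 71.2 and 73.9 CPM in S1KO against 18.3 and 14.9 CPM in WT. Its log2 fold change was 2.13 ± 0.19. ANKRD36B (chr2:97492663-97589965, minus strand) was the least abundant of the 3 also in TPM, and had 21.5 and 24.3 CPM in S1KO against 6.54 and 7.77 CPM in WT, and a log2 fold change of 1.68 ± 0.22. In each copy the genotypes did not overlap.

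Since reads can be divided between copies that share sequence, the family was also summed. Its 6 genes held 178.3 and 180.5 CPM in S1KO against 44.3 and 40.3 CPM in WT, a log2 fold change of 2.09 ± 0.16. The 3 listed copies made up 99.82% of that difference, and the unlisted genes summed to 0.56 and 1.14 CPM in S1KO against 0.55 and 0.66 CPM in WT, with overlap. No annotated copy had both S1KO values below both WT values in CPM. How reads were divided among the copies was not tested. The share of the family assigned to each copy shifted little. ANKRD36 took 47.67% and 44.98% in S1KO against 42.74% and 42.02% in WT, and ANKRD36C 39.93% and 40.93% in S1KO against 41.25% and 37.05%. ANKRD36B took 12.08% and 13.45% in S1KO against 14.76% and 19.29% in WT. The genotypes overlapped for ANKRD36C and not for the other two.

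Transcripts that retain an intron carried much of the ANKRD36 signal. ANKRD36-202, a retained-intron transcript of 4201 bases at the end of the gene, had 55.0 and 49.3 CPM in S1KO against 10.5 and 9.55 CPM in WT and made up 64.6% of the gene's difference. Retained-intron transcripts took 65.0% and 61.0% of ANKRD36 counts in S1KO against 59.5% and 61.5% in WT, so their share overlapped between genotypes. In ANKRD36C the share did not overlap: it was 66.4% and 62.9% in S1KO against 32.9% and 21.6% in WT. The transcripts ANKRD36C-203 (26.5 and 27.0 CPM in S1KO against 4.16 and 1.87 CPM in WT) and ANKRD36C-205 (20.8 and 19.5 CPM in S1KO against 1.85 and 1.35 CPM in WT) carried this. The coding transcript ANKRD36C-202 had 22.1 and 26.2 CPM in S1KO against 11.5 and 10.9 CPM in WT, a smaller separation that still did not overlap. Over all protein-coding genes, retained-intron transcripts took 7.48% and 10.5% of counts in S1KO against 10.4% and 11.9% in WT; what part RNA processing or quality had in the ANKRD36C values was not tested. With retained-intron transcripts left out of the table, the log2 fold change of ANKRD36C was 1.08 and that of ANKRD36 2.10.

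In S1KO a coding transcript led in ANKRD36B, whereas a retained-intron transcript led in ANKRD36 and ANKRD36C. In ANKRD36C the S1KO lead was small: 37.2% and 36.6% of counts for ANKRD36C-203 against 31.1% and 35.4% for the coding ANKRD36C-202. ANKRD36C-202 led in WT, with 62.9% and 72.8%. ANKRD36B-202 had 12.4 and 14.9 CPM in S1KO against 1.64 and 1.31 CPM in WT and made up 77.1% of the gene's difference. The longer transcripts were assigned unevenly within a genotype: ANKRD36B-201 had 6.65 and 0.44 CPM in S1KO against 0.02 and 5.60 CPM in WT, while ANKRD36B-204 had 0 and 6.43 CPM in S1KO against 3.96 and 0 CPM in WT. In every library 1 of this pair was near 0 and the other was not, so only their sum can be read.

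CCDC144A (chr17:16689537-16777881, plus strand) had 56.1 and 56.2 CPM in S1KO against 13.0 and 14.6 CPM in WT, on 833 and 1196 estimated counts in S1KO and 364 and 456 in WT. The S1KO libraries were almost equal to each other and stood above both WT libraries, with a log2 fold change of 2.03 ± 0.18, or 4.07-fold. A single coding transcript, CCDC144A-206 of 8686 bases, carried 95.1% of the difference, at 51.7 and 51.1 CPM in S1KO against 10.9 and 11.3 CPM in WT. Of its 31-base words 9.29% were found in no other gene. The closest relatives are copies annotated as pseudogenes.

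CCDC144B (chr17:18537800-18625617), a transcribed pseudogene that held 46.57% of the words of CCDC144A, had 7.50 and 15.6 CPM in S1KO against 7.47 and 9.49 CPM in WT; S1KO 1 lay between the WT libraries, and the log2 fold change was 0.45 ± 0.38. CCDC144CP (chr17:20321164-20403557), also a transcribed pseudogene, had 5.11 and 6.96 CPM in S1KO against 1.79 and 2.70 CPM in WT, with a log2 fold change of 1.42 ± 0.40 and no overlap. The fourth gene, CCDC144NL, did not pass the filter: it had 1.20 and 1.003 estimated counts in S1KO against 3.51 and 54.7 in WT, nearly all of them in WT 2. In CPM the log2 fold change of CCDC144B was -0.19 without S1KO 2. On TPM without mitochondrial genes CCDC144B had 9.01 and 16.6 in S1KO against 5.42 and 5.05 in WT, with no overlap.

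Summed over the family, CPM was 68.8 and 78.8 in S1KO against 22.4 and 28.5 in WT, a log2 fold change of 1.54 ± 0.20, of which CCDC144A made up 87.66%. CCDC144A took 81.5% and 71.4% of the family's counts in S1KO against 58.1% and 51.1% in WT, and CCDC144B 10.9% and 19.8% against 33.3% in each WT library. In CPM the shares of these 2 copies did not overlap between genotypes. With an offset for effective length the copies moved closer, with log2 fold changes of 1.26 for CCDC144A and 1.34 for CCDC144B, so the difference in balance holds for counts without a length correction.

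**Figure D2:**
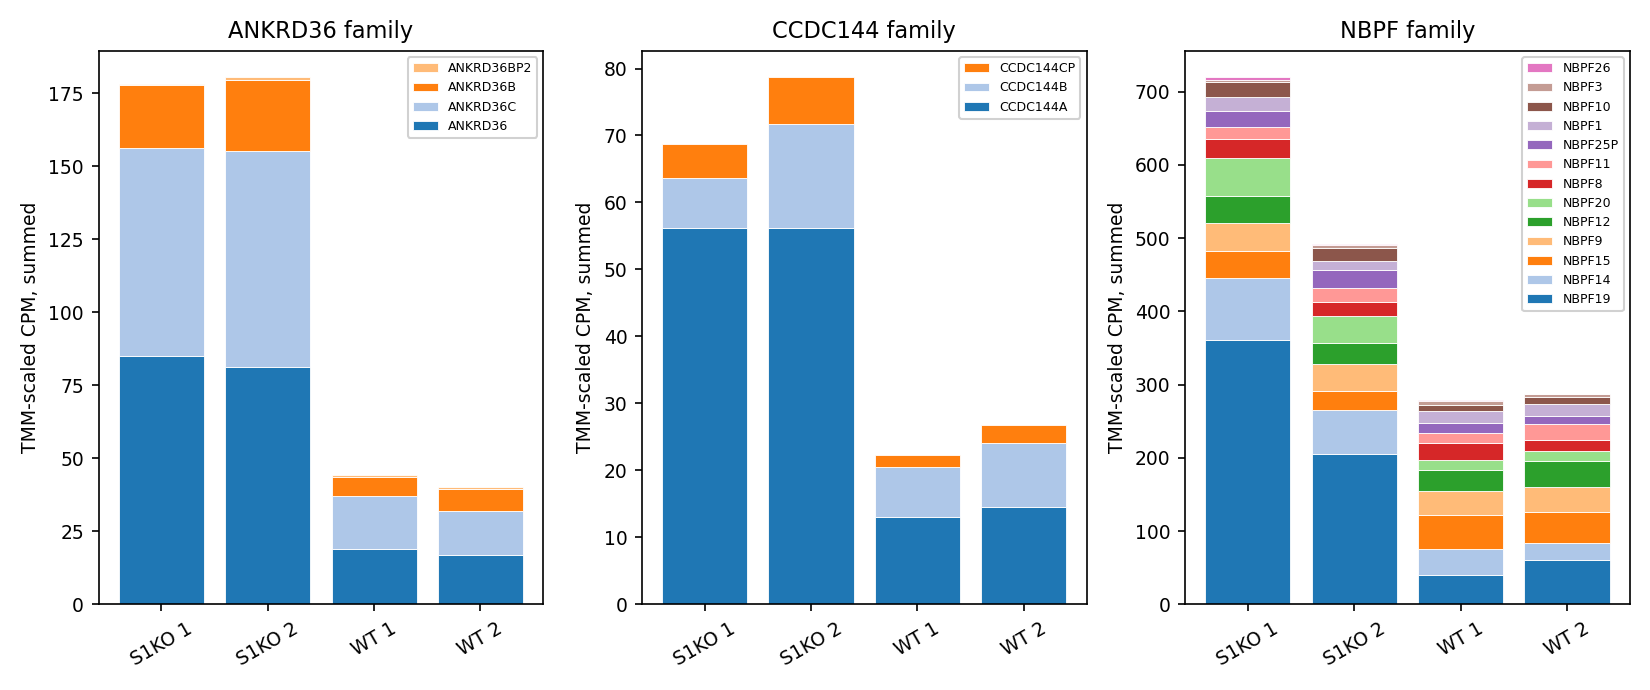
CPM of the tested genes of the ANKRD36, CCDC144 and NBPF families, stacked within each library (each panel has its own linear axis from 0). The stacks of both S1KO libraries are taller than those of both WT libraries in all 3 families, and in the NBPF panel most of the extra height is NBPF19, the lowest segment.

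NBPF19 (chr1:149390623-149556361, plus strand) had the highest level of the 8, in TPM as well as in CPM, and the widest spread in CPM. Its CPM was 360.4 and 204.7 in S1KO 1 and S1KO 2, against 40.6 and 59.9 in WT 1 and WT 2. These rest on 5348 and 4354 estimated counts in S1KO against 1135 and 1878 in WT. Both S1KO libraries were far above both WT libraries, and S1KO 1 was far above S1KO 2. The log2 fold change was 2.49 ± 0.33, the largest of the 8 listed genes, or 5.62-fold.

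Almost all of this difference came from 1 short transcript. NBPF19-202, the repeat-built transcript shown above, had 327 and 180 CPM in S1KO against 18.2 and 25.6 CPM in WT and made up 99.7% of the gene's difference. It took 90.6% and 88.1% of NBPF19 counts in S1KO against 44.9% and 42.8% in WT. NBPF19-201 had 33.0 and 24.3 CPM in S1KO against 12.3 and 23.5 CPM in WT, so S1KO 2 and WT 2 were nearly level. NBPF19-205 went the other way, with 0 and 0.07 CPM in S1KO against 9.30 and 9.67 CPM in WT. With NBPF19-202 taken out of the table, an alternative chosen after its value was seen, the log2 fold change of NBPF19 was 0.03.

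Most of the sequence of NBPF19-202 is not its own. Its 2314 word positions hold 836 distinct 31-base words, of which 18.3% occur in no other gene. Other NBPF genes hold most of the rest, counted over all transcripts of a gene together. NBPF10 held 81.7% of the words, NBPF14 78.7%, NBPF9 and NBPF26 76.0% each, and NBPF20 72.6%. NBPF1 held 35.4%. Most words of NBPF19-202 thus cannot tell NBPF19 from another NBPF gene. A low share of own words is not particular to this transcript. It was 12.7% in NBPF19-201, 8.68% in NBPF14-206 and 13% in NBPF10-202.

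NBPF14 (chr1:148531385-148679751, minus strand) had 84.4 and 60.2 CPM in S1KO against 35.2 and 23.8 CPM in WT, with a log2 fold change of 1.29 ± 0.26. Its long coding transcript NBPF14-206, of 10080 bases, made up 79.3% of the difference, at 66.7 and 46.4 CPM in S1KO against 27.3 and 17.9 CPM in WT. NBPF10 (chr1:146064699-146144804, minus strand) had 20.4 and 16.8 CPM in S1KO against 7.81 and 8.87 CPM in WT, a log2 fold change of 1.15 ± 0.23. Neither gene had overlapping genotypes, and neither was called by edgeR.

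Within NBPF10 the transcripts behaved unlike each other. NBPF10-202 had 14.4 and 9.35 CPM in S1KO against 1.65 and 2.51 CPM in WT, which was 95.4% of the gene's difference. NBPF10-201 had 6.02 and 7.45 CPM in S1KO against 6.16 and 6.36 CPM in WT and overlapped.

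NBPF1 (chr1:16562319-16613562, minus strand), which lies on the short arm, far from the other listed NBPF genes, and has the most sequence of its own, had 18.9 and 13.2 CPM in S1KO against 16.5 and 16.3 CPM in WT. The WT values lay between the S1KO values, and the log2 fold change was -0.04 ± 0.24. It was -0.33 without S1KO 1, 0.19 without S1KO 2 and -0.51 with protein-coding transcripts only. Its noncoding transcript NBPF1-207 had 6.43 and 0.76 CPM in S1KO against 1.38 and 1.67 CPM in WT, and NBPF1-206 had 2.13 and 5.80 CPM in S1KO against 4.71 and 4.59 CPM in WT. The spread between the S1KO libraries was larger than that between genotypes for both transcripts.

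**Figure D3:**
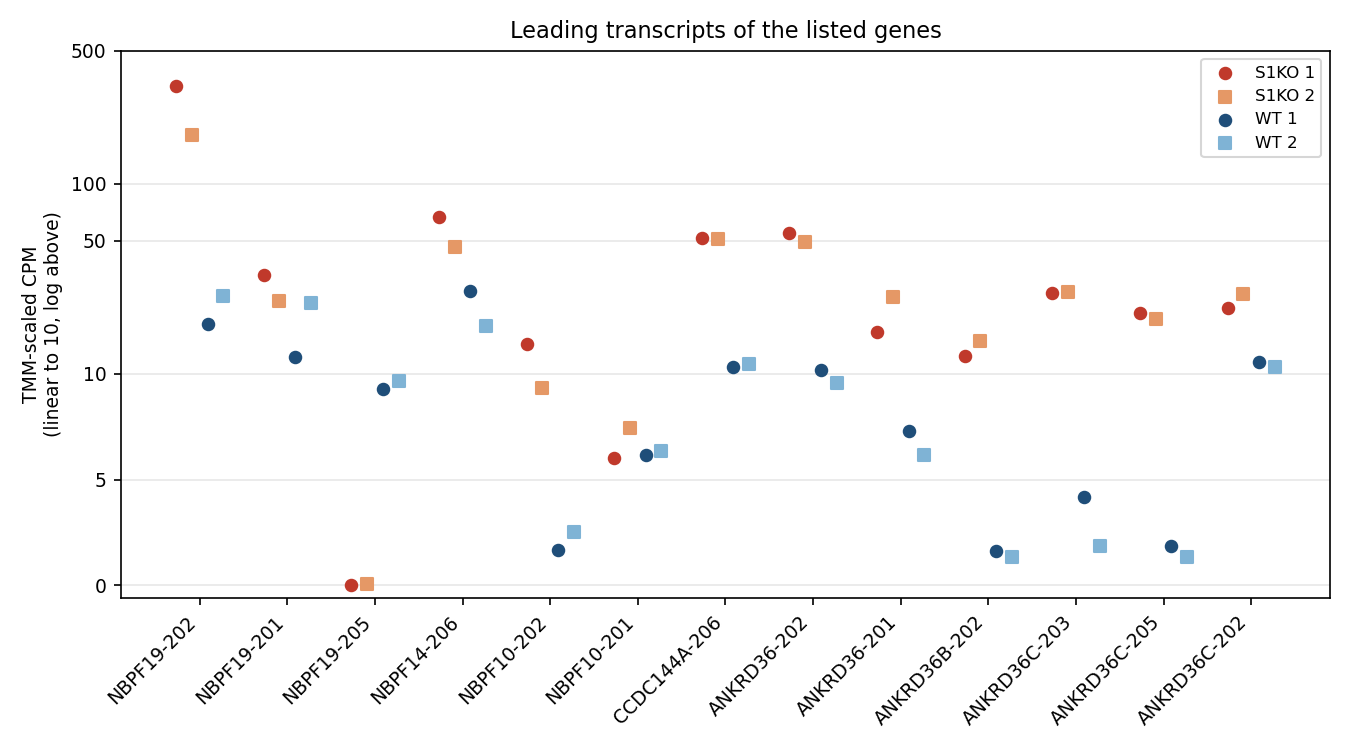
CPM of the leading transcripts of the listed genes in each library (axis linear from 0 to 10 and logarithmic above). NBPF19-202 in the S1KO libraries is the highest point set. NBPF19-205 is the only transcript drawn with both S1KO points below both WT points. NBPF10-201 overlaps, and in NBPF19-201 the S1KO 2 point lies just above the WT 2 point.

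Of 23 NBPF genes, 13 passed the filter and 7 were at 0 in every library. Outside the list, NBPF20 (chr1:145289900-145405778, minus strand) had the highest S1KO CPM of those with both S1KO values above both WT values. Its CPM was 52.1 and 37.2 in S1KO against 13.5 and 14.04 in WT, with a log2 fold change of 1.70 ± 0.22. It was the 1 gene called by edgeR among the 12 tested family genes that were not listed. NBPF26 had few counts, at 3.67 and 1.80 CPM in S1KO against 0.80 and 0.26 CPM in WT, and a log2 fold change of 2.37 ± 0.71, which was 3.37 without WT 1 and 1.76 without S1KO 1. NBPF25P, a pseudogene, had 21.4 and 24.9 CPM in S1KO against 13.5 and 11.7 CPM in WT (0.88 ± 0.21).

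The other NBPF genes had estimates near or below 0. The log2 fold change was 0.24 ± 0.28 for NBPF8, 0.17 ± 0.17 for NBPF9, 0.03 ± 0.21 for NBPF12 and -0.00 ± 0.24 for NBPF11. Of these 4, NBPF9 alone did not overlap, at 39.1 and 36.1 CPM in S1KO against 32.6 and 34.3 CPM in WT. NBPF15 had 37.1 and 26.7 CPM in S1KO against 46.3 and 42.3 CPM in WT, a log2 fold change of -0.48 ± 0.21, and NBPF3 had 3.41 and 4.25 CPM in S1KO against 5.44 and 4.67 CPM in WT (-0.39 ± 0.34). With protein-coding transcripts only, NBPF3 had 0.20. In NBPF15 and NBPF3 both S1KO values were under both WT values, as in 25.8% of all tested genes. Over the 12 tested genes that were not listed, the pseudogene ANKRD36BP2 (0.48 ± 0.64) included, 9 estimates were positive and 3 negative, with a median of 0.34. The sign of several rested on 1 library: ANKRD36BP2 was -0.18 without S1KO 2, NBPF8 -0.04 without WT 2, and NBPF12 -0.16 without S1KO 1 and -0.11 without WT 1, while NBPF11 was 0.04 without S1KO 1 and 0.29 without WT 2.

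The NBPF family sum was 719.8 and 492.2 CPM in S1KO against 278.6 and 287.5 CPM in WT, with a log2 fold change of 1.10 ± 0.24. NBPF19 made up 71.9% of the difference, NBPF14 13.3% and NBPF20 9.56%, while NBPF15 took away 3.84%. Without NBPF19 the sum was 359.4 and 287.6 CPM in S1KO against 238.0 and 227.5 CPM in WT. The unlisted NBPF genes summed to 235.7 and 197.4 CPM in S1KO against 178.5 and 178.6 CPM in WT, so in CPM the unlisted genes were not lower as a sum. The share of NBPF19 in the family was 50.1% and 41.6% in S1KO against 14.6% and 20.8% in WT. Without NBPF19-202 the family's log2 fold change was 0.43 ± 0.19.

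NBPF1, NBPF10, NBPF14 and NBPF19 were listed with this contrast in view, so their estimates were known beforehand. A sequence property outside the original plan was set beside the NBPF estimates. It is the percentage of 31-base word positions in a gene's longest transcript whose word recurs in that transcript. It was 83.1% for NBPF20, 71.5% for NBPF10, 70.6% for NBPF19, 65.2% for NBPF14 and 40.8% for NBPF26, the 5 NBPF genes of highest estimate. It was 38.1% for NBPF12, 33.2% for NBPF8, 29.1% for NBPF1, 23.0% for NBPF9 and 10.3% for NBPF11, whose estimates were between -0.04 and 0.24. It was 2.65% for NBPF15 and 0.27% for NBPF3, the lowest estimates, while NBPF25P, at 3.03%, was an exception with 0.88. The longest transcripts of NBPF19, NBPF14 and NBPF26 had 0 estimated counts in every library. In the transcript of each with the most counts the share was 94.4% (NBPF19-202), 64.3% (NBPF14-206) and 42.7% (NBPF26-201), but in that of NBPF12, whose estimate was near 0, it was 42.5%. The place of NBPF19 rests on NBPF19-202, without which its estimate was 0.03. For NBPF10 the 71.5% is that of NBPF10-201, which overlapped between genotypes and held 4.57% of the gene's difference. NBPF10-202, with 95.4% of that difference, had 79.9%. These 13 genes share words and libraries and are not independent. The pattern did not extend to the other families: the value was 11.8% for ANKRD36, 10.1% for ANKRD36C, 2.09% for ANKRD36B and 0 for CCDC144A, all with estimates between 1.68 and 2.21.

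**Figure D4:**
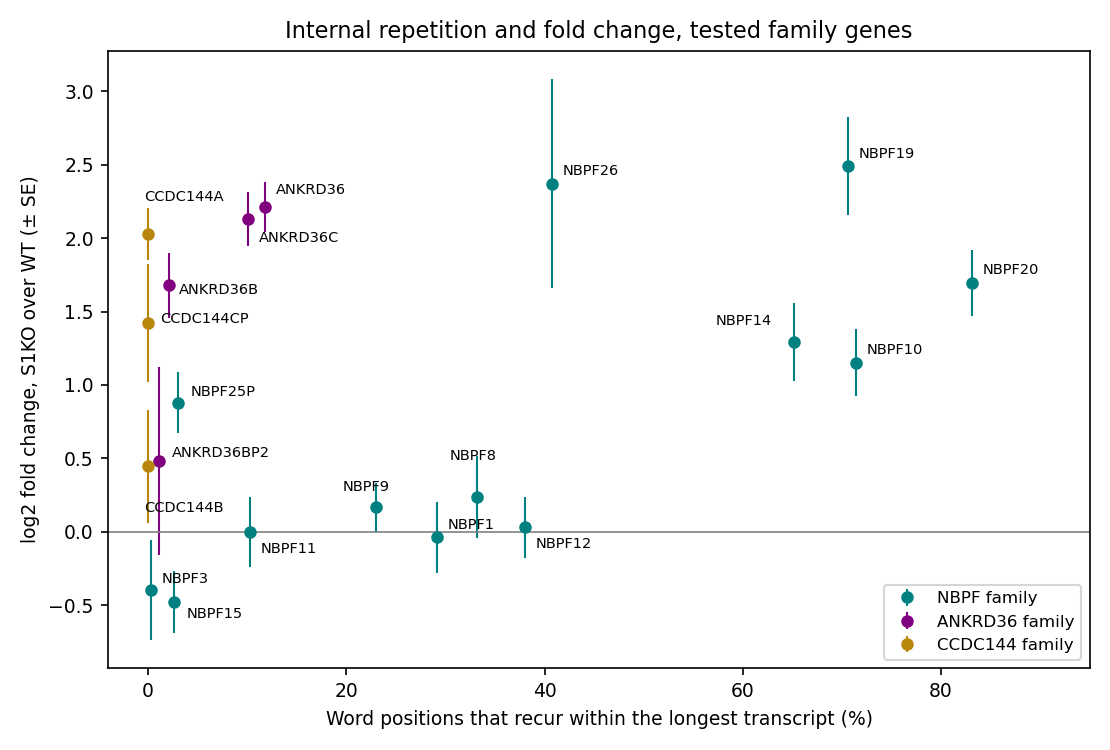
Log2 fold change, S1KO over WT, against the share of word positions that recur within the longest annotated transcript, whether or not it had counts, for the 20 tested genes of the 3 families (bars are SE of the fit, 2 libraries per genotype). The 5 NBPF genes at 40.8% and above have estimates between 1.15 and 2.49. ANKRD36, ANKRD36B, ANKRD36C and CCDC144A reach 1.68 to 2.21 at 11.8% and below.

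The scale changed several of these readings. TPM divides by transcript length and by a total that includes mitochondrial transcripts, and in TPM both S1KO libraries were below both WT libraries for 71% of the tested genes and above them for 4.29%. Of the 8 listed genes, 4 were above in S1KO (ANKRD36, ANKRD36C, NBPF10 and NBPF19), 3 overlapped (ANKRD36B, CCDC144A and NBPF14) and NBPF1 was below. On log2(TPM + 1) the median difference over all tested genes was -0.78. Relative to that median the listed genes differed by 2.54 for NBPF19, 1.96 for ANKRD36C, 1.70 for ANKRD36, 1.15 for ANKRD36B, 1.04 for CCDC144A, 0.92 for NBPF10, 0.89 for NBPF14 and -0.08 for NBPF1, which keeps every sign of the CPM scale. The estimates of NBPF8, NBPF9 and NBPF12, near 0 in CPM, were -0.56, -0.73 and -0.58 in log2(TPM + 1), and that of NBPF25P was -0.06, all of them above the median of all genes.

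Per length, the order of the listed genes in S1KO was led by NBPF19, at 91.3 and 83.9 TPM in S1KO against 21.9 and 28.96 TPM in WT. ANKRD36C followed with 14.9 and 22.8 TPM in S1KO against 9.27 and 6.20 TPM in WT, and ANKRD36 with 10.8 and 16.7 TPM in S1KO against 7.33 and 6.10 TPM in WT; these 2 genes overlapped in either genotype. NBPF14 had 6.71 and 8.78 TPM in S1KO against 9.45 and 5.21 TPM in WT. CCDC144A had 4.55 and 7.65 TPM in S1KO against 4.13 and 5.59 TPM in WT, and NBPF1 4.28 and 5.17 TPM in S1KO against 11.6 and 7.54 TPM in WT. ANKRD36B had 3.58 and 6.45 TPM in S1KO against 2.80 and 4.40 TPM in WT. The S1KO values of NBPF14, CCDC144A, NBPF1 and ANKRD36B overlapped in a chain, so no order among these neighbours exceeds the spread. NBPF10, with very long transcripts, was lowest at 0.96 and 1.27 TPM in S1KO against 0.91 and 0.94 TPM in WT.

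With mitochondrial genes taken out of the total, ANKRD36 had 33.3 and 37.5 TPM in S1KO against 9.82 and 8.83 TPM in WT, and CCDC144A 13.95 and 17.1 TPM in S1KO against 5.53 and 8.10 TPM in WT. On this scale the S1KO libraries lay above the WT libraries for every listed gene except NBPF1. NBPF1 had 13.1 and 11.6 TPM in S1KO against 15.6 and 10.9 TPM in WT. For NBPF19 the scale gave 280 and 188 TPM in S1KO against 29.4 and 42.0 TPM in WT. The share of all tested genes separated in this way was not counted, and the scale was chosen after seeing the data. In log2(TPM + 1) on this scale, the median difference over all tested genes was -0.07.

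The family sums depended on scale as well. In TPM the ANKRD36 family had 29.5 and 46.6 in S1KO against 19.9 and 17.4 in WT, and the NBPF family 132.7 and 141.4 in S1KO against 109.1 and 100.1 in WT. The CCDC144 family overlapped, at 8.93 and 17.7 TPM in S1KO against 10.5 and 13.996 TPM in WT. NBPF genes without NBPF19 were lower, at 41.4 and 57.5 TPM in S1KO against 87.2 and 71.1 TPM in WT. Leaving out WT 1, the library with mesenchymal markers, the listed genes other than NBPF1 had log2 fold changes between 1.07 (NBPF10) and 2.30 (ANKRD36) in CPM.

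Other families of recent duplication were tabulated for comparison. Of 296 such genes 162 were tested, and edgeR called 0 in either direction, beside 0.936% of all 15377 tested genes. At an unadjusted p below 0.05 edgeR gave 18 higher and 17 lower in S1KO, beside 2993 of all tested genes in either direction. DESeq2 called 6 higher and 8 lower, beside 649 and 503 of all tested genes. The median log2 fold change of the 162 genes was -0.19, with 68 positive and 94 negative, against -0.02 over all tested genes. The 8 listed genes, chosen on this contrast, had a median of 1.85. Families whose proteins also carry ankyrin repeats went both ways. Estimates were positive in 3 of 3 tested ANKRD20A genes (median 1.67), 4 of 4 POTE genes (0.59) and 3 of 3 ANKRD30 genes (0.46), but in 1 of 2 ANKRD18 genes (-1.01) and 1 of 9 AGAP genes (-0.37). GOLGA8 genes, which encode golgin-like proteins, were negative in 7 of 7, with a median of -0.82. These families were picked out after their values were seen. A difference between these families and the listed genes was not tested.

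Genes outside the families were ranked by how close their log2 CPM, centred over the 4 libraries, lay to the mean profile of the 8 listed genes. Among 12058 protein-coding genes with a mean TPM of at least 1, the nearest was UPF3B, a factor of nonsense-mediated mRNA decay, with 162 and 126 CPM in S1KO against 48.5 and 48.7 CPM in WT. RBM25, a splicing regulator, had 865 and 677 CPM in S1KO against 268 and 272 CPM in WT, but with protein-coding transcripts only its log2 fold change was -1.13. ST8SIA1, a ganglioside sialyltransferase, had 12.1 and 10.8 CPM in S1KO against 3.23 and 3.33 CPM in WT, and MCOLN3, a lysosomal cation channel, 8.57 and 6.82 against 2.31 and 2.51 CPM. SLC7A14, a lysosomal transporter, had 9.93 and 7.92 CPM in S1KO against 2.61 and 2.96 CPM in WT, and -0.44 in log2(TPM + 1). Their distances from the profile were between 0.09 and 0.14, and in each the S1KO 1 level was the highest of the 4 libraries. The likeness rests on 4 libraries and mostly on the gap between genotypes.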

How the data were processed

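Messenger RNA of 4 iMGL libraries (2 S1KO, 2 WT) was quantified with kallisto, with hg38 as the build, per the submitters' processing notes. Its version, the transcript set and the library strand are not stated in the labels or file headers. Per the labels' protocols RNA was poly-A selected and read as pairs of 150 bp. The deposited values, per the file headers, are the estimated count and the TPM of each transcript, with its length and effective length, for each library on its own. A read that fits several transcripts is divided among them, so estimated counts of near-identical copies are correlated and uncertain.

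Of 188753 transcripts, 169797 were assigned to genes by GENCODE 29 identifier and 15521 by symbol; 3435 without a gene name (0.323% to 0.643% of counts) were left out. Gene sums were rounded and, for the 15377 of 35584 genes kept by filterByExpr, fitted across all genes with edgeR 4.0.16 in R 4.3.3 (TMM factors 0.654, 0.957, 1.31 and 1.22 in S1KO 1, S1KO 2, WT 1 and WT 2; quasi-likelihood test, two-sided, Benjamini-Hochberg at 0.05, genotype as the only term). Family sums replaced their genes in a fit of their own. Any 2 libraries had 261 or more tested genes over 4-fold apart, so none repeats another. Sequence words were compared over the GENCODE 29 transcripts whose identifiers were among those quantified. Of 165 family transcripts, 161 had the same length in GENCODE 29 as in the deposited files. The fit was tested on simulated data.

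Alternatives were DESeq2 1.42.0, its size factors, no filter, a replicate block, leaving out each library, an effective length offset, limma 3.58.1 (with trend) on log2(TPM + 1) and log2(TPM + 0.1), protein-coding transcripts only, no retained-intron transcripts, primary chromosomes only and no mitochondrial genes. Rescaled TPM and the table without NBPF19-202 were chosen after seeing the data, and word repetition within a transcript was not in the original plan. The listed genes and all gene lists were chosen with earlier results of these data known. Values were named for the 8 genes, for family genes with at least 20 mean estimated counts and for the 5 nearest genes; ANKRD36BP2 and CCDC144NL, below that minimum, were named after their values were seen. Protein sequences were not analysed here.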

Additional observations from a re-analysis of the deposited data

How the results depend on the processing

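The sums of the 3 families kept a positive log2 fold change under all 17 alternatives run. For the ANKRD36 family it was 2.02 to 2.16 with 1 library left out, 1.99 with an effective length offset, 1.58 with protein-coding transcripts only, 1.54 without retained-intron transcripts, 0.96 and 0.99 with limma on log2(TPM + 1) and log2(TPM + 0.1), and 1.87 on rescaled TPM. For the CCDC144 family the same settings, other than the one without retained-intron transcripts, gave 1.37 to 1.73, 1.03, 2.20, 0.0534, 0.0528 and 0.92. The 2.20, from protein-coding transcripts only, is CCDC144A alone, since no coding transcript of the other CCDC144 genes had counts. For the NBPF family it was 0.79 to 1.33 with 1 library left out, 1.42 with the length offset, 0.39 in both limma fits and 0.43 without NBPF19-202.

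The number of listed genes called, 5, was 0 to 7 with 1 library left out, 3 with the length offset, without retained-intron transcripts or on rescaled TPM, 2 with protein-coding transcripts only and 1 in both limma fits. Over all genes 144 were called (121 higher, 23 lower in S1KO), 1152 by DESeq2 (649 higher, 503 lower), 1361 without a filter (585 and 776), 0 to 2151 with 1 library left out, 2892 (133 and 2759) and 2637 (120 and 2517) by limma on log2(TPM + 1) and log2(TPM + 0.1), 21 with protein-coding transcripts only and 91 without retained-intron transcripts. RBM25 was -1.13 with protein-coding transcripts only. The causes were not tested.

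With the replicate number as a block, edgeR called 0 genes (2892 at an unadjusted p below 0.05) and 0 of the 8, and INPP5D had an adjusted p of 0.0501; deviations of same-numbered libraries correlated at 0.0233 over 2 pairs, too few to show whether the numbers pair the libraries. Depth limits CCDC144NL, ANKRD36BP2 and NBPF26 most among the family genes named, with means of 15.1, 17.2 and 30.8 estimated counts. The error from dividing reads among copies was not measured.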
